A study of Sus scrofa with 2 samples.

Results

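SOD3, SOD2, GPX3 and PON3 are 4 genes of oxidant defence, and they were examined among the 26881 features counted in single cells of the sow's endometrium, the inner lining of the uterus. They were taken by name from the feature list (ENSSSCG00025006411, ENSSSCG00025040769, ENSSSCG00025033090 and ENSSSCG00025061663) and each symbol matched 1 feature. These genes were chosen by their levels in an earlier look at the same libraries, so the differences between libraries given here are a description and were not tested. Endometrium came from 2 Yorkshire sows of 3 years. The EL (embryo loss) sow had aborted once and then failed to conceive at 3 inseminations in a row. The EIS sow, standing for successful implantation, had been inseminated successfully and was sampled at day 30, counted from insemination. The labels do not give the reproductive stage of the EL sow at sampling. With 1 library from 1 sow in each group, sow, reproductive outcome, stage and library preparation cannot be told apart, and no test across sows was possible.

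Superoxide dismutases turn superoxide into hydrogen peroxide. SOD3 is the secreted copper and zinc form that works outside the cell, and SOD2 is the manganese form of the mitochondrial matrix, induced in many cells by inflammatory signals. GPX3 is the secreted, selenium-containing glutathione peroxidase of plasma, which removes peroxides. PON3 belongs to the paraoxonases, lactone-hydrolysing enzymes known for limiting lipid oxidation. In the pig the conceptus is fed for weeks by the secretions of uterine glands, whose abundant products include the protease inhibitor SLPI, the iron-carrying protein uteroferrin (ACP5) and its associated protein UABP-2.

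After filtering, 9864 EL cells and 8068 EIS cells remained, with medians of 2338.5 and 2248 unique molecular identifiers (UMIs, counted RNA molecules) per cell. Each cell was placed in a class by its marker genes, and a class is named by those markers with the ending -like. The epithelial-like class held 4312 EL and 884 EIS cells, the ciliated-like class 1411 and 215, the T or NK-like class 235 and 445, and the macrophage-like class (macrophage, monocyte or dendritic markers) 115 and 433. These 4 classes had at least 100 cells in both libraries and were compared. Trophoblast-like cells, the type of the placenta, numbered 569 in EIS and 0 in EL. No class was given to 36.5% of EL and 50.2% of EIS cells. The epithelial-like class came from different clusters in the libraries: EL clusters 1, 5, 4, 10 and 0 and EIS clusters 9, 16, 8 and 3 held most of it. Only 40.9% of the EIS macrophage-like cells lay in clusters of that class, against 84.3% in EL. The libraries shared 27 barcodes. Levels are given as CPM, the UMIs of the gene over all UMIs of the class on the usual scale, with exact Poisson 95% intervals, which cover counting error only. In sums over a class, fewer expressing cells and less RNA per cell cannot be told apart.

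Of the 4 genes, SOD3 had the widest difference between libraries. Over all kept cells it stood at 2.16 CPM in EL (83 UMIs) and 2262 CPM in EIS (75692 UMIs). In epithelial-like cells it was counted 48 times in EL, 2.14 CPM (1.58 to 2.84), and 29362 times in EIS, 4635 CPM (4582 to 4688). The EIS level was 2164-fold higher (1632 to 2935). A SOD3 UMI was present in 1.09% of EL and 94.3% of EIS epithelial-like cells. When every cell was thinned to 500 UMIs, the shares were 0.139% and 78.6%. Among EIS epithelial-like cells the median cell held 16 SOD3 UMIs, the middle of the range ran from 4 (25th percentile) to 52 (75th), and the highest cell held 379. SOD3 UMIs were thus seen in nearly all EIS epithelial-like cells, and the 89 cells with most carried 36.5% of them. Over the other EIS classes the share of cells with a SOD3 UMI ran from 35.7% (T or NK-like) to 92.9% (smooth muscle-like). The part of free RNA in these shares was not tested.

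Within the EIS library the SOD3 order ran from epithelial-like cells down to ciliated-like cells. Trophoblast-like cells followed at 1338 CPM and smooth muscle-like cells at 1201 CPM, each apart from its neighbours by its interval. Lymphatic endothelial-like (915 CPM), macrophage-like (854 CPM) and vascular endothelial-like cells (840 CPM) formed a group with overlapping intervals. Neutrophil-like (594 CPM), B-like (549 CPM) and T or NK-like cells (547 CPM) formed another. Stromal-like cells had 328 CPM and ciliated-like cells 140 CPM (121 to 160), the lowest of the 11 classes. The order depended on which cells were taken. Just 47.5% of the EIS stromal-like cells lay in stromal clusters. Those clusters, 22 (led by APOE) and 24 (led by APOD), had 108 and 48.6 CPM of SOD3 in EIS, below ciliated cluster 2 at 175 CPM. The trophoblast clusters 6 and 18 had 1883 and 94.8 CPM. The EL order could hardly be read. Neutrophil-like, epithelial-like and ciliated-like EL cells gave 1, 48 and 4 SOD3 UMIs, and the remaining 4 EL classes gave 0.

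**Figure D1:**
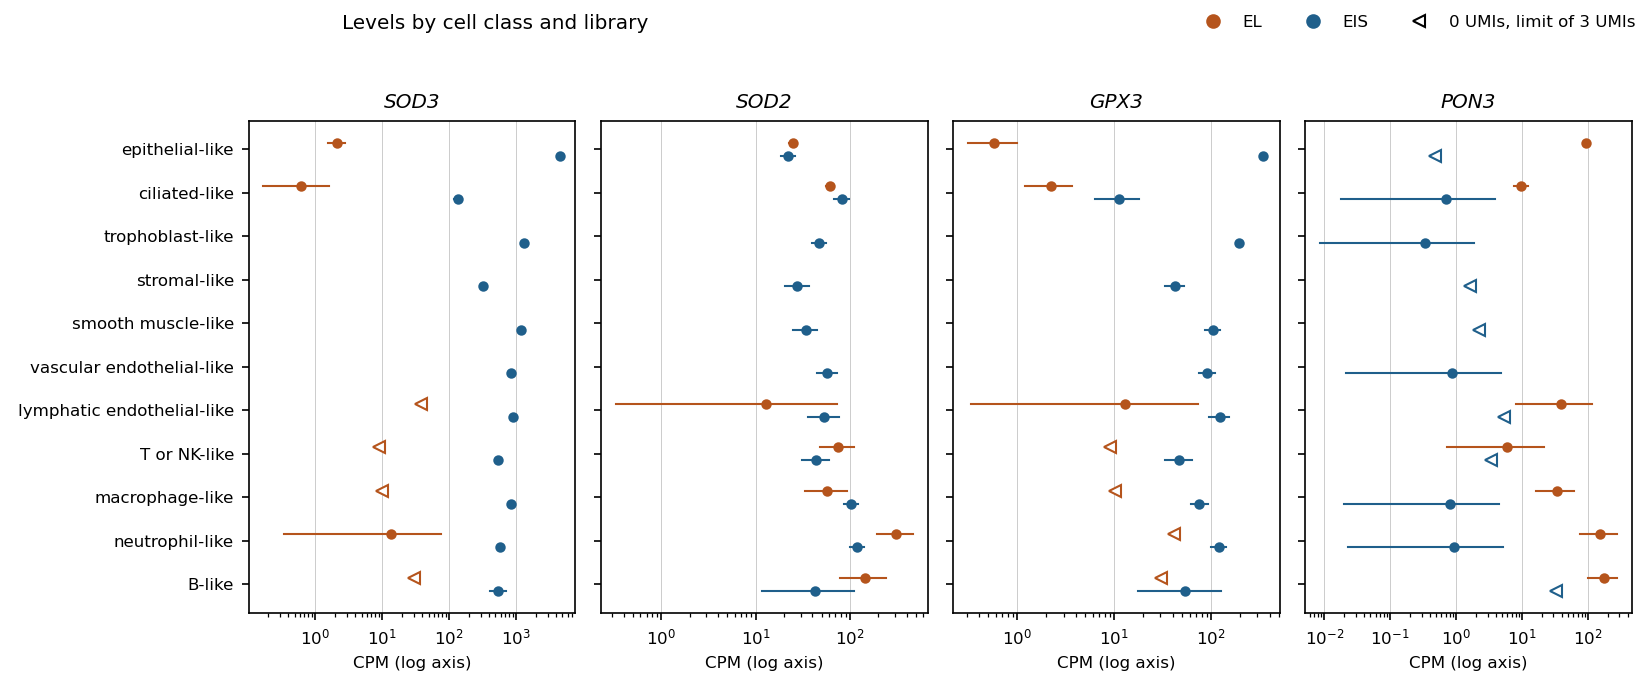
Levels of the 4 genes in CPM (log axis) in each cell class with at least 20 cells, EL in orange and EIS in blue, with exact Poisson 95% intervals; open triangles mark classes with 0 UMIs at the level that 3 UMIs would give. SOD3 and GPX3 lie to the right in EIS in every class seen in both libraries, PON3 lies to the right in EL, and the SOD2 points of the libraries lie closest together.

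The clusters refined the picture of SOD3 in the epithelium. The EIS cluster led by SLPI, UABP-2 and ACP5 (cluster 9) had 5360 CPM and held 54.1% of all SOD3 UMIs of that library. SOD3 was itself among the leading genes of cluster 9, so its level there is a description. The cluster led by DCLK2 and KSR2 (cluster 8), whose cells were shallow with a median of 752 UMIs, had 4310 CPM. The cluster led by the metallothioneins MT1D and MT1A (cluster 16) had 3274 CPM. In EL every epithelial cluster was at 10.1 CPM or below, and that highest value belonged to the dividing cells led by CENPF and UBE2C. The low EL level was therefore common to all of the EL epithelial clusters, also those led by JPH4 (4.19 CPM), CLDN10 (4.62 CPM), CCK (0.829 CPM) and CYP26A1 (0.207 CPM).

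SOD3 in EIS followed SLPI across the cell classes. SLPI took 32.9% of the UMIs of EIS epithelial-like cells and 3.16% of those of T or NK-like cells. Per 1000 SLPI UMIs there were 14.1 SOD3 UMIs (13.9 to 14.3) in epithelial-like cells. The other 10 classes lay between 14.3 in vascular endothelial-like and 18.2 in neutrophil-like cells, a 1.29-fold range over the 11 classes. This was not particular to SOD3: uteroferrin (ACP5) per SLPI ranged 1.40-fold over the same classes. The ratio for osteopontin (SPP1), a secreted adhesion protein, ranged 22.8-fold. Per 1000 SLPI UMIs, SPP1 had 694 UMIs in neutrophil-like cells, 127 in macrophage-like cells and 30.4 to 69.9 in the other classes. A SOD3 UMI was found in 35.7% of EIS T or NK-like cells (median depth 1786 UMIs) against 94.3% of epithelial-like cells (median 4156.5 UMIs). After thinning to 500 UMIs these shares were 19.3% and 78.6%. Whether SOD3 UMIs outside the epithelium came from free RNA was not tested.

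Some clusters left that common ratio. Cluster 8 had 67.2 SOD3 UMIs per 1000 of SLPI (64.8 to 69.7), cluster 16 had 30.1 (29.0 to 31.2), and the collagen-rich stromal cluster led by APOE (cluster 22) had 35.1 (30.6 to 40.1). The neutrophil cluster led by SDS and G0S2 (cluster 20) had 30.0 (25.7 to 34.7). The departure was not limited to these. The T or NK clusters 17 and 19 had 27.0 (20.5 to 34.8) and 23.7 (17.7 to 31.2). Trophoblast cluster 18 had 23.2 (18.9 to 28.2), cluster 23 had 21.0 (19.3 to 22.8) and ciliated cluster 2 had 18.9 (16.9 to 21.2). SOD3 in those cells was therefore higher than SLPI would give at the ratio of all kept EIS cells, 14.8 (14.7 to 14.9). The SLPI-led cluster 9 had the lowest ratio of the EIS clusters, 13.4 (13.3 to 13.6), so any cluster set against it comes out higher.

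**Figure D2:**
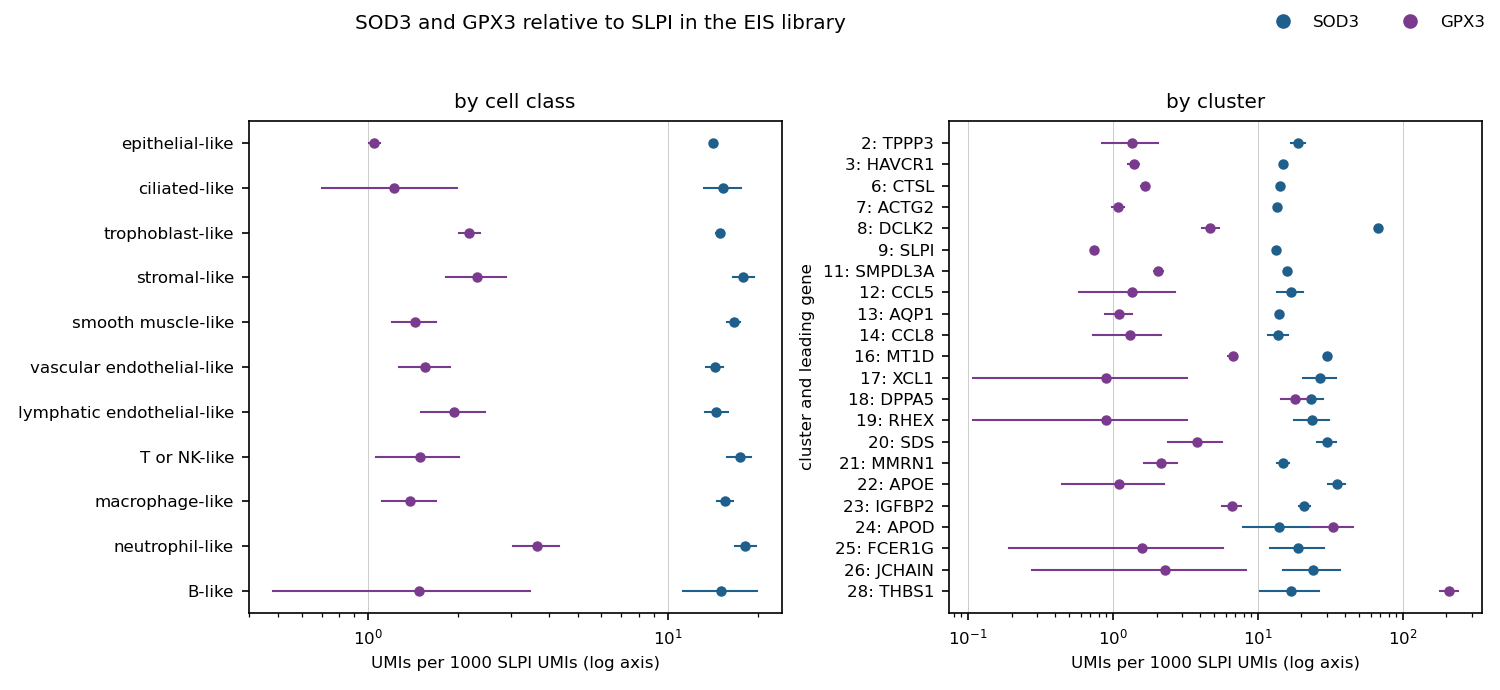
SOD3 and GPX3 UMIs per 1000 SLPI UMIs (log axis) in the EIS library, by cell class on the left and by cluster on the right, with exact 95% intervals. SOD3 stays between 14.1 and 18.2 over the classes, while GPX3 spreads from 1.05 to 3.65 over the classes and reaches 209 in cluster 28.

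GPX3, the other secreted enzyme higher in EIS, was rarer and less uniform. Over all kept cells it had 34 UMIs in EL (0.885 CPM) and 6648 in EIS (199 CPM). Epithelial-like cells gave 13 UMIs in EL, 0.580 CPM (0.309 to 0.992), and 2179 in EIS, 344 CPM (330 to 359), which is 593-fold higher in EIS (346 to 1115). A GPX3 UMI was present in 0.301% of EL and 60.1% of EIS epithelial-like cells, and in 0% and 6.29% of T or NK-like cells. At 500 UMIs per cell the EIS shares were 18.8% and 1.57%. In EIS the median epithelial-like cell had 1 GPX3 UMI and the 89 cells with most held 47.1% of them.

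The EIS order of GPX3 began with the same 2 classes as that of SOD3. Epithelial-like cells (344 CPM) stood above trophoblast-like cells (195 CPM), and both were apart from their neighbours. From lymphatic endothelial-like (122 CPM) and neutrophil-like cells (119 CPM) down to stromal-like cells (42.4 CPM), each class overlapped the next. Ciliated-like cells were the lowest class at 11.2 CPM (6.39 to 18.1). As with SOD3, this low place depended on which cells were taken. EIS cells of stromal cluster 22 had 3.4 CPM of GPX3, below ciliated cluster 2 at 12.4 CPM and with intervals apart. The other stromal cluster, 24, had 116 CPM. The T or NK clusters 12, 17 and 19 had 15.5, 7.66 and 8.55 CPM, with intervals overlapping that of cluster 2.

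GPX3 and SOD3 were ordered differently over the EIS clusters. The metallothionein cluster 16 had the highest GPX3 level, 729 CPM (676 to 786), against 301 CPM in cluster 8 and 294 CPM in the SLPI-led cluster 9. GPX3 was itself among the leading genes of cluster 16, so its level there is a description. Cluster 28, a set of 33 EIS cells led by THBS1 and MAL with the uroplakins UPK2 and UPK1B among its leading genes, had 409 CPM of GPX3 (360 to 464), in 97.0% of its cells. SOD3 in cluster 28 was only 33.3 CPM. Per 1000 SLPI UMIs, cluster 28 had 209 GPX3 UMIs (182 to 240), the APOD-led cluster 24 had 33.1 (23.3 to 45.7) and the DPPA5-led cluster 18 had 18.2 (14.4 to 22.7), against 0.739 in cluster 9. Cluster 9 is led by SLPI and had the lowest ratio of the EIS clusters, so every other cluster lies above it. The ratio of all kept EIS cells was 1.30 (1.27 to 1.33), and GPX3 in these 3 clusters exceeded that by far. Among EIS epithelial-like cells, those with a UMI of the claudin CLDN10 had 536 CPM of GPX3 (498 to 576) and those without had 290 CPM (275 to 305). SOD3 was 4513 and 4669 CPM in the same 2 sets.

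PON3 had the opposite pattern. The EL library held 3305 PON3 UMIs (86.1 CPM) and the EIS library 12 (0.359 CPM). In epithelial-like cells there were 2077 UMIs in EL, 92.7 CPM (88.7 to 96.8), and 0 in EIS, where 3 UMIs would have been 0.474 CPM. The EL level was 196-fold higher with EIS set at 3 UMIs, and the exact interval started at 159. PON3 was present in 27.0% of EL epithelial-like cells (6.1% when thinned to 500 UMIs). A PON3 UMI was seen in 0 of 884 EIS epithelial-like cells, with an exact upper limit of 0.416% for the share of cells with a UMI. The floor of 3 cells would be 0.339%. Neither value sets a limit on cells expressing the gene. EL T or NK-like cells had a PON3 UMI in 0.851% of cells at a median depth of 1317 UMIs, against 3258.5 UMIs in the epithelial-like class.

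Within the EL epithelium PON3 was far from even. The cluster led by CLDN10, PON3 and FAM162B (cluster 4) had 246 CPM (234 to 258), with PON3 in 59.8% of its cells, and held 51.5% of the PON3 UMIs of the library. PON3 took part in defining that cluster, so its level there is a description. The JPH4-led cluster 1 had 190 CPM, the dividing cluster 15 had 154 CPM and cluster 0 had 79.6 CPM. Cluster 0 was led by DLX6, TPPP3 and ODF3B, and its cells were shallow, with a median of 885 UMIs. TPPP3 also led ciliated cluster 2, and cluster 0 held 24.2% of the EL ciliated-like cells. The CCK-led cluster 5 had 34.6 CPM and the CYP26A1-led cluster 10 had 1.34 CPM (0.716 to 2.30), although its cells were deepest, with a median of 12876 UMIs.

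Single genes also divided the EL epithelial-like cells by PON3, though not always as the clusters did. Cells with a CLDN10 UMI had 156 CPM of PON3 (149 to 163) and cells without had 14.4 CPM (12.1 to 16.9). Cells with a UMI of JPH4 or JAKMIP1 had 146 CPM and those without 5.65 CPM. The gland regulator FOXA2 and the secretory-cell factor SPDEF gave a like division, at 138 CPM with a UMI of either and 6.62 CPM without. CYP26A1, a retinoic acid hydroxylase, ran the other way, with 20.7 CPM of PON3 in cells that had a UMI of it and 164 CPM in cells that did not. So did ACP5 or UABP-2, at 6.13 CPM with and 111 CPM without. Cells with a UMI of OPTC, CCK or AQP3 had 127 CPM and those without 8.22 CPM, although the CCK-led cluster 5 was low. Except for CLDN10, the set lower in PON3 had the deeper cells, as with JPH4 or JAKMIP1 (median 6439 UMIs without, 3125 with). SOD2 did not follow these divisions, at 24.7 and 24.8 CPM without and with JPH4 or JAKMIP1 and 23.6 and 25.9 CPM with and without CYP26A1.

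Beyond the epithelium, EL neutrophil-like cells had 11 PON3 UMIs in 8 of 21 cells, 153 CPM (76.3 to 273), and B-like cells 17 UMIs in 5 of 21 cells, 173 CPM (101 to 277). The neutrophil-like interval overlaps that of the epithelial-like class (88.7 to 96.8) and the B-like interval lies just above it. The B-like level depended on which cells were taken. B cluster 26 held 16 of the 21 B-like cells, and its 20 EL cells had 0 PON3 UMIs. The other B-like cells, which carried all 17 UMIs, lay in epithelial clusters 4 (4 cells) and 1 (1 cell). In neutrophil cluster 20, the 26 EL cells had 18 PON3 UMIs, 279 CPM (165 to 441). Macrophage-like cells had 33.8 CPM (16.2 to 62.2) from 10 UMIs and ciliated-like cells 9.77 CPM (7.49 to 12.5). CLDN10, an epithelial gene, stood at 458 CPM in the neutrophil-like and 499 CPM in the B-like EL cells, against 440 CPM in the epithelial-like class. Per 1000 UMIs of LYPD1, a gene with a PON3-like pattern, there were 766 PON3 UMIs in epithelial-like cells (723 to 812). In neutrophil-like cells there were 1000 (393 to 2543) and in B-like cells 739 (371 to 1446), with overlapping intervals. LYPD1 is among the 3 genes most like PON3 over these same class levels, so nothing is read from this overlap. The part of free RNA or mixed droplets in the PON3 of EL immune-like cells was not tested.

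**Figure D3:**
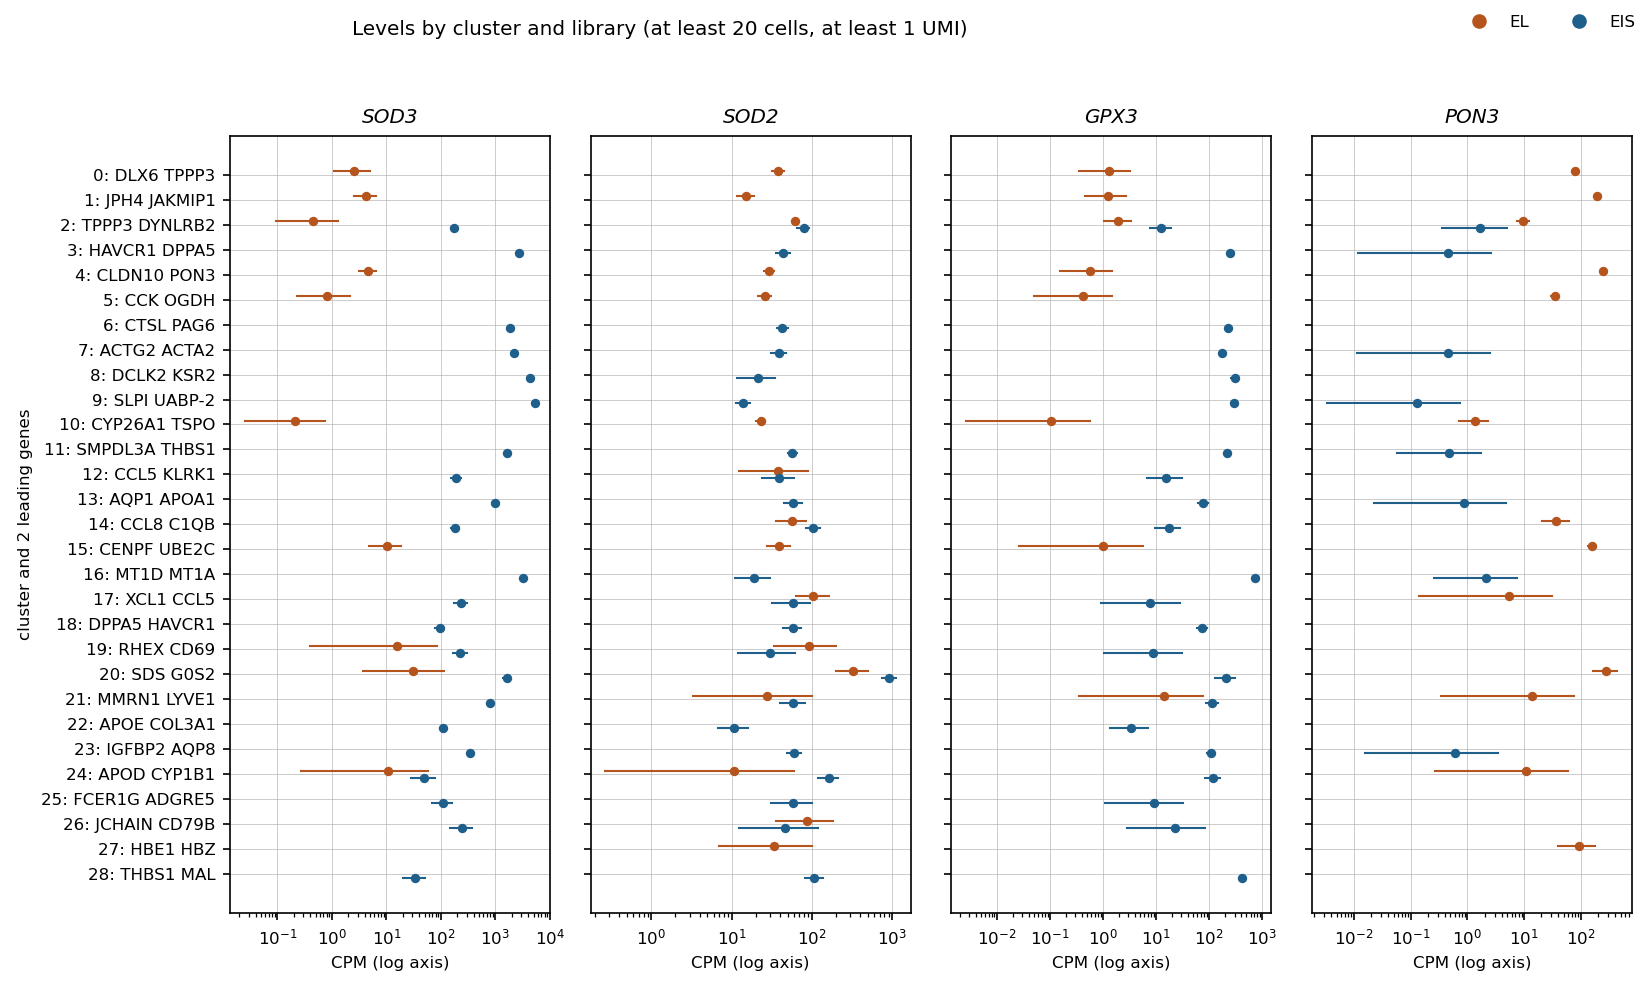
Levels of the 4 genes in CPM (log axis) in each cluster with at least 20 cells of a library and at least 1 UMI of the gene, EL in orange and EIS in blue, with exact Poisson 95% intervals. PON3 is highest in EL clusters 20, 4, 1 and 15, GPX3 in EIS clusters 16 and 28, SOD3 in EIS clusters 9, 8 and 16, and SOD2 in cluster 20 of both libraries.

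SOD2, the mitochondrial enzyme, differed least. Over all kept cells it had 33.8 CPM in EL (1296 UMIs) and 45.5 CPM in EIS (1522 UMIs). Epithelial-like cells had 24.8 CPM in EL (22.7 to 26.9) and 22.3 CPM in EIS (18.7 to 26.2), a ratio of EL over EIS of 1.11 (0.923 to 1.35) whose interval holds 1 and whose direction turned with the scaling. The median gene of epithelial-like cells had a log2 ratio of EL over EIS of 1.35, and SOD2 stood at -1.19 relative to it. With TMM factors, which centre most genes on no difference, the SOD2 log2 ratio of EL over EIS was -1.02.

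Neutrophil-like cells came first for SOD2 in both libraries, at 306 CPM in EL (192 to 463, from 22 UMIs) and 119 CPM in EIS (99.0 to 141), but both intervals overlap that of the next class, B-like cells in EL (78.0 to 239) and macrophage-like cells in EIS (86.6 to 123). The direction between libraries depended on how these cells were taken. Of the 146 EIS neutrophil-like cells, 36 lay in cluster 23, led by IGFBP2 and AQP8, whose SOD2 level was 60.0 CPM, and 72 in cluster 20. In cluster 20, led by SDS, G0S2 and CSF3R, SOD2 was 325 CPM in 26 EL cells and 921 CPM in 140 EIS cells (752 to 1116), 2.83-fold higher in EIS (1.76 to 4.76). The cluster differed in make-up: 17 of its EL cells were neutrophil-like and 1 macrophage-like, against 72 and 53 of its EIS cells. The gate and the cluster thus gave opposite directions between libraries over different sets of cells.

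Among the other EIS classes SOD2 went from 104 CPM in macrophage-like and 82.4 CPM in ciliated-like cells to 27.7 CPM in stromal-like and 22.3 CPM in epithelial-like cells, and each class overlapped the next in this order. In EL the classes below the neutrophil-like were B-like (143 CPM), T or NK-like (74.9 CPM), ciliated-like (61.0 CPM) and macrophage-like cells (57.5 CPM), with overlapping intervals, and epithelial-like cells stood apart below them, overlapping only lymphatic endothelial-like cells (1 UMI). The APOD-led stromal cluster 24 had 161 CPM of SOD2 in EIS (53 UMIs) and 10.6 CPM in EL (1 UMI). In the EIS epithelium, cluster 9, with most SOD3, had 14.0 CPM of SOD2 (11.5 to 16.9). Cluster 28, low in SOD3 and high in GPX3, had 106 CPM of SOD2 (82.0 to 136).

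In ciliated-like cells all 4 genes could be set against the epithelium. SOD3 gave 4 UMIs in EL (0.630 CPM) and 200 in EIS (140 CPM), 222-fold higher in EIS (85.2 to 821). GPX3 gave 14 UMIs in EL (2.21 CPM) and 16 in EIS (11.2 CPM), 5.06-fold higher in EIS (2.32 to 11.2). PON3 gave 62 UMIs in EL and 1 in EIS (0.698 CPM), a ratio of 14.0 (2.42 to 561). Removing 10% of each class as free RNA, in the proportions of its whole library, left no SOD3 ratio in ciliated-like cells, since both counts came to the limit of 3 UMIs or below. The same removal brought the GPX3 log2 ratio from -2.34 to -0.00329 and the PON3 log2 ratio from 3.81 to 0.69. The ciliated-like ratios of SOD3, GPX3 and PON3 therefore depend on how much free RNA is assumed.

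SOD2 in ciliated-like cells did not share that dependence. It stood at 61.0 CPM in EL (387 UMIs) and 82.4 CPM in EIS (118 UMIs), 1.35-fold higher in EIS (1.09 to 1.66), and at a log2 ratio of -0.40 with 10% free RNA removed. In cluster 2, which holds ciliated cells of both libraries, SOD2 was 62.0 and 78.6 CPM. A SOD2 UMI was seen in 22.1% of EL and 38.1% of EIS ciliated-like cells, with median depths of 4858 and 6652 UMIs. At 500 UMIs per cell the shares were 2.06% (1.38 to 2.94) and 2.79% (1.03 to 5.97), whose intervals overlap.

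In T or NK-like cells SOD3 had 0 UMIs in EL and 479 in EIS (547 CPM), and GPX3 had 0 and 41 (46.9 CPM). With EL set at 3 UMIs, SOD3 was 60.9-fold and GPX3 5.22-fold higher in EIS, and the exact intervals started at 49.4 and 4.05. The SOD2 levels were 74.9 CPM (EL) and 43.4 CPM (EIS), a ratio of 1.72 (0.997 to 2.93) whose interval holds 1. PON3 gave 2 UMIs in EL and 0 in EIS, too few for a fold. In macrophage-like cells SOD3 had 0 and 1071 UMIs (854 CPM in EIS) and GPX3 0 and 95 (75.7 CPM). With EL set at 3 UMIs, these were 84.1-fold and 7.46-fold higher in EIS, and the exact intervals started at 68.3 and 5.95. SOD2 was 1.80-fold higher in EIS (1.08 to 3.19), at 57.5 CPM (EL) and 104 CPM (EIS), and the C1QA and CCL8-led macrophage cluster 14 gave 56.9 and 104 CPM. PON3 had 10 UMIs in EL and 1 in EIS, a ratio of 42.5 (6.04 to 1842). The size of the EIS levels depended on which cells were taken: SOD3 was 182 CPM and GPX3 17.3 CPM in EIS cells of cluster 14, and SOD3 was 192, 230 and 227 CPM in those of the T or NK clusters 12, 17 and 19. These clusters held 0 or 1 SOD3 UMIs in EL. Collagen and other stromal markers also differed with the library in these immune-like cells. Added up, the 8 measured stromal markers came to 18.0 CPM in T or NK-like cells of EL and to 1404 CPM in those of EIS, and in macrophage-like cells to 44.0 and 2058 CPM. In EL, COL1A1, COL1A2 and PDGFRA were at 0 in both classes. The part of RNA from other cells in the SOD3 and GPX3 of immune-like cells was not tested.

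These counts can be set beside those of all genes with at least 20 UMIs. In epithelial-like cells SOD3 and GPX3 were at least 2-fold higher in EIS, as were 6.62% of 14087 genes, and PON3 was so in EL, as were 64.6%. In ciliated-like cells the same genes passed in the same directions, where 4.13% of genes did so toward EIS and 6.21% toward EL. In T or NK-like cells SOD3 and GPX3 passed toward EIS (5.74% of genes) and none of the 4 toward EL (6.77%). In macrophage-like cells SOD3 and GPX3 passed toward EIS (9.38% of genes) and PON3 toward EL (8.49%). SOD2 passed in none of the 4 classes. As the genes were chosen on these libraries, nothing is read from these shares.

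The rest of the oxidant-defence system was taken from 9 lists with 80 further genes, of which 44 had a feature under their symbol. In epithelial-like cells 39 were measured, 21 were at least 2-fold higher in EL (64.6% of all genes were) and 2 in EIS (6.62% of all genes). Their median log2 ratio of EL over EIS was 1.08, beside 1.35 for all genes, so they were shifted toward EL by somewhat less than genes at large. Values relative to the median gene are therefore given with the folds of listed genes in epithelial-like cells, as log2 differences. In ciliated-like cells 36 were measured, with 2 past 2-fold in each direction (6.21% of all genes toward EL and 4.13% toward EIS) and a median of 0.09 beside 0.03 for all genes.

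The other superoxide dismutase, SOD1, a copper and zinc enzyme of the cytosol, was 3.53-fold higher in EL epithelial-like cells (3.27 to 3.82), at 394 against 112 CPM, or 0.47 above the median gene. The copper chaperone ATOX1 and the copper pump ATP7A stood at -0.74 and -0.04 relative to it. ATOX1 hands copper to ATP7A, which brings it to the secretory pathway that serves SOD3. In ciliated-like cells SOD1 was 1.11-fold higher in EIS (1.04 to 1.19).

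The glutathione peroxidases GPX8 and GPX2, of the endoplasmic reticulum and of mucosal epithelium, were the 2 listed genes at least 2-fold higher in EIS epithelial-like cells. GPX8 had 10 UMIs in EL and 18 in EIS, 6.37-fold higher in EIS (2.79 to 15.4), and GPX2 had 23 and 24, 3.69-fold higher (2.00 to 6.84). Relative to the median gene GPX8 stood at -4.02 and GPX2 at -3.23. Both were under 4 CPM in either library. GPX4, which reduces lipid peroxides in membranes, was 413 CPM in EL and 185 CPM in EIS, -0.18 relative to the median gene. In ciliated-like cells GPX8 ran the other way, 4.56-fold higher in EL (2.35 to 10.1).

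The glutathione transferases were spread widely around the median gene. MGST1, a microsomal transferase, was 11.6-fold higher in EL epithelial-like cells (10.9 to 12.3), GSTM3 11.2-fold (10.3 to 12.1) and GSTA4, which clears lipid aldehydes, 7.73-fold (5.19 to 12.04). Relative to the median gene they stood at 2.19, 2.14 and 1.61, while the other transferases measured, MGST3, MGST2 and GSTO1, stood at -0.27, -0.60 and -1.08. GSTM3 was also higher in EL in T or NK-like cells, 9.17-fold (5.19 to 17.1), and in macrophage-like cells, 7.74-fold (5.31 to 11.4), but 1.33-fold in ciliated-like cells (1.16 to 1.54). Its EL levels were 1143 CPM in epithelial-like, 168 CPM in T or NK-like and 278 CPM in macrophage-like cells. The part of RNA from other cells in the GSTM3 of immune-like cells was not tested.

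Of the peroxide-removing peroxiredoxins, PRDX6 was 6.75-fold higher in EL epithelial-like cells (5.04 to 9.25) and PRDX3, the mitochondrial one, 3.35-fold (2.94 to 3.84), or 1.41 and 0.40 relative to the median gene. PRDX4, of the secretory pathway, was 1.92-fold higher in EIS (1.79 to 2.06), or -2.29 relative to it. In ciliated-like cells PRDX5 was 2.84-fold higher in EIS (2.69 to 2.99). The glutaredoxin GLRX2 was 4.59-fold higher in EL epithelial-like cells (3.97 to 5.32) and the reductase TXNRD1 3.24-fold (2.58 to 4.11), or 0.85 and 0.35 relative to the median gene.

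Of the regulators and sources, KEAP1, which holds the transcription factor NRF2 in check, was 3.00-fold higher in EL epithelial-like cells (2.26 to 4.07), or 0.24 relative to the median gene. The NRF2 target NQO1 had 26 and 13 UMIs, and its ratio interval held 1. MAOB, a mitochondrial amine oxidase that releases hydrogen peroxide, was 19.2-fold higher in EL (9.26 to 48.1), from 476 UMIs in EL and 7 in EIS, or 2.92 relative to the median gene. HMOX1, which breaks down haem, was 2.56-fold higher in EIS macrophage-like cells (1.72 to 3.95). Of the selenoprotein genes, SELENOS was 2.09-fold higher in EL T or NK-like cells (1.51 to 2.89) and 2.05-fold higher in EL macrophage-like cells (1.56 to 2.68). Over the lists, 25 genes were measured in T or NK-like cells, with 2 past 2-fold toward EL (6.77% of all genes) and 1, CAT, toward EIS (5.74%). In macrophage-like cells 29 were measured, with 2 toward EL (8.49% of all genes) and 2 toward EIS (9.38%).

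**Figure D4:**
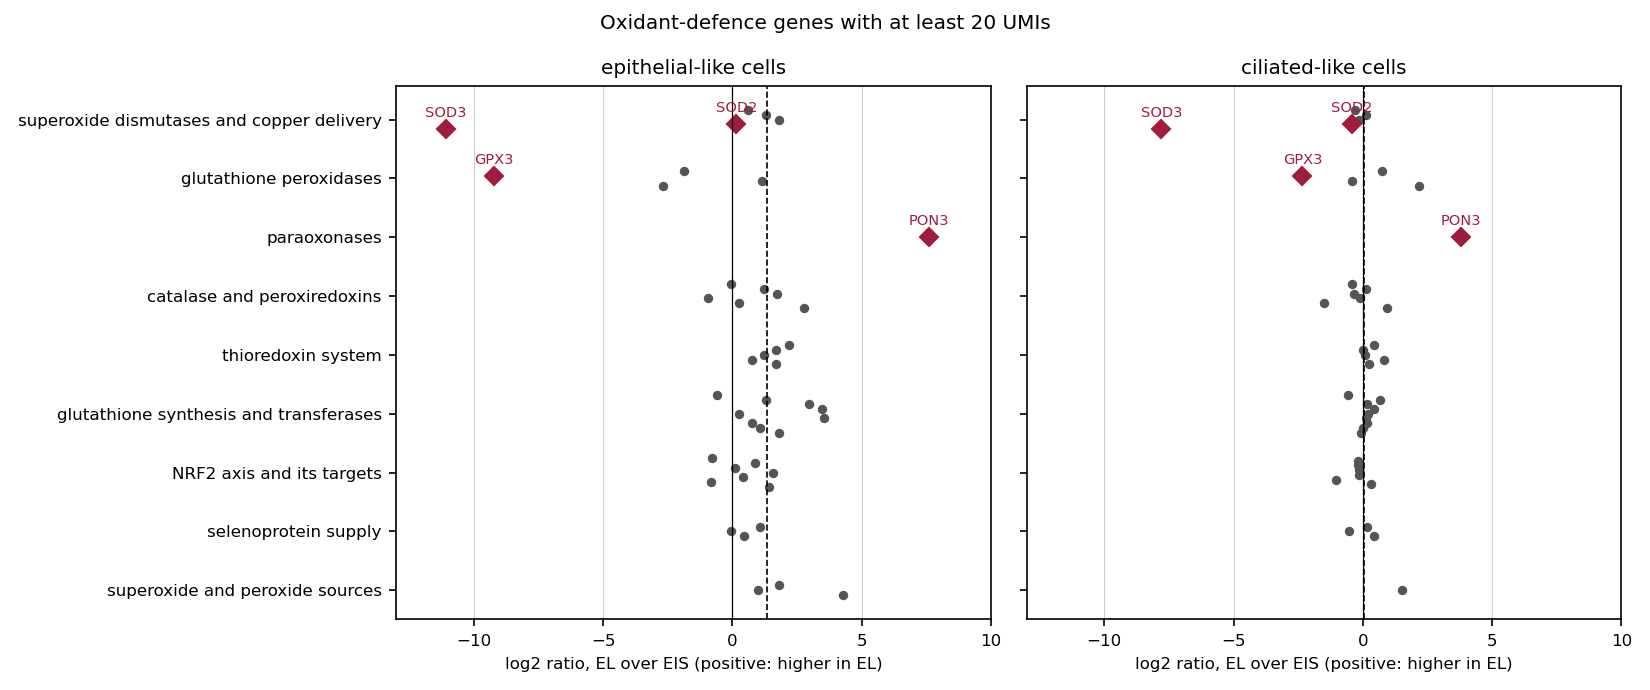
Log2 ratio of EL over EIS for each listed gene with at least 20 UMIs in epithelial-like (left) and ciliated-like cells (right), with SOD3, SOD2, GPX3 and PON3 as red diamonds, the median of all genes as a dashed line and PON3 in epithelial-like cells at its lower bound. SOD3 (-11.08), GPX3 (-9.21) and PON3 (7.61) lie outside the listed genes in epithelial-like cells, and SOD2 (0.15) lies among them.

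The genes most like each of the 4 were sought over the 18 class-by-library levels (7 EL and 11 EIS) among 5519 genes, by Pearson's r of log2(CPM + 1). These levels share 2 libraries, so the values are a description. SOD3 was most like UABP-2 (r = 0.979), KSR2 (0.961) and ALDH3A1 (0.961). GPX3 was most like KSR2 (0.946), SLPI (0.945) and UABP-2 (0.940), and PON3 most like BDNF (0.985), RLBP1 (0.977) and LYPD1 (0.976). SOD2 had no close companion, with BBC3 at 0.801, FAM120A at 0.752 and IKBKB at 0.743.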

How the data were processed

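Endometrium of 2 sows was dissociated and sequenced by droplet 3' single-cell RNA-seq. The matrices deposited by the authors hold UMI counts per gene and barcode, which the submitters' processing notes trace to Cell Ranger 2.1.1 and the headers of the files to cellranger 6.1.0. The genome build is not given in the sources used here. Barcodes with at least 500 UMIs and 300 genes were kept. Scrublet's automatic threshold marked 0 and 1 doublets, so the 933 EL and 601 EIS cells with the highest scores were removed (0.8% per 1000 barcodes). A class other than epithelial needed at least 2 of its marker genes and a marker share at least 3 times the higher library share. Epithelial cells needed 2 markers and every other class below 1 times that share. CD247 and GATA2 were left out as markers. Classes with over 50% of their cells in clusters of another class were not shown. Cells were also clustered (scanpy 1.11.5, 2000 variable genes, 30 components, 15 neighbours, Leiden resolution 1). Counts were summed per class and library. Ratios have exact conditional and shares exact Clopper-Pearson 95% intervals, for counting error only. A count of 0 was set to 3 UMIs for folds. Interval code was checked on simulated counts. The 4 genes, lists, markers and cut-offs were chosen with earlier results of these data known, and 2 gate rules after levels of the 4 genes had been seen. Named genes are the 4, up to 4 per list and class by size of log2 ratio (at least 20 UMIs), and the 3 most alike by r (at least 100 UMIs, highest level at least 50 CPM). Genes of the marked subgroups and cluster leaders are named for orientation.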

Additional observations from a re-analysis of the deposited data

Results flagged for a closer look

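Cells in no class were outside the comparisons and held UMIs of all 4 genes above the limit that a count of 0 allows. In those cells SOD3 stood at 3.37 CPM in EL (28 UMIs) and 2653 CPM in EIS (34732 UMIs), and GPX3 at 0.482 CPM in EL (4 UMIs) and 233 CPM in EIS (3055 UMIs). The SOD2 levels there were 31.1 CPM (EL) and 41.7 CPM (EIS). PON3 stood at 130 CPM in EL (1081 UMIs) and 0.535 CPM in EIS (7 UMIs). The directions of SOD3, GPX3 and PON3 were those of the epithelial-like class.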

How the results depend on the processing

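Each group had 1 library, so no library could be left out. No paired analysis was possible because each group had 1 sow and 1 library. Values here are log2 ratios of EL over EIS. In epithelial-like cells, TMM factors gave -12.25 for SOD3, -1.02 for SOD2, -10.38 for GPX3 and 6.44 for PON3, and leaving out genes over 1% of a library gave -12.17, -0.94, -10.31 and 6.52; the SOD2 direction turned under both. Thinning to 500 UMIs left fewer UMIs and gave -9.43 for SOD3 and 4.26 for PON3 in epithelial-like cells, and -5.04 for SOD3, -0.89 for SOD2 and -3.71 for GPX3 in ciliated-like cells. PON3 in ciliated-like cells came to -0.84 there, since 0 EIS UMIs were set to 3. The thinned shares of cells with a UMI were 78.6% for SOD3 and 18.8% for GPX3 (EIS epithelial-like), 6.1% for PON3 (EL epithelial-like), and 2.79% and 2.06% for SOD2 (EIS and EL ciliated-like). Removing 10% free RNA gave -0.00329 for GPX3 and 0.69 for PON3 in ciliated-like cells and no value for SOD3. Clusters in place of gated cells gave 8.45 for PON3 in epithelial-like cells. Of 3 alternatives chosen after seeing the data, keeping gated cells in clusters of their own class gave 0.54 for epithelial-like SOD2, and the other two moved none of the 8 ratios. Asking for 1 more marker, for at least 1000 genes per cell, or keeping doublets moved none of the 8 ratios. Where construction does not show it, the cause was not tested.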
